A study of Bos taurus with 4 samples.

Results

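The genes of the apoptosis and p53 response were followed in bovine blastocysts that grew from slow-frozen or from unfrozen morulae. The set holds 40 genes, chosen by name: 19 that promote cell death, 11 that oppose it and 10 of other or double function, most of them in the p53 pathway. A gene entered through its symbol in the annotation of the array, which found 54 probes for 36 of the genes, out of 15229 genes with a symbol on the array. Where a gene had several probes, as 12 did, the probe with the brightest raw signal was taken. BIK, BBC3, PMAIP1 and BIRC2 had no probe by symbol and were not analysed here. After dim probes were set aside, 31 members were tested: 13 of the 19 pro-apoptotic genes, 9 of the 11 anti-apoptotic genes and 9 of the other 10.

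Apoptosis is cell death that a cell carries out on itself. In the mitochondrial route, BH3-only proteins sense damage and free or activate the effectors BAX and BAK1, which open the outer mitochondrial membrane, whereas BCL2 and its anti-apoptotic relatives hold them back. Proteins that leak out of the mitochondria then switch on caspases, proteases that take the cell apart and that the IAP family (inhibitors of apoptosis) restrains. The transcription factor p53, held low by MDM2 and MDM4, answers DNA damage by inducing genes of cell cycle arrest and of apoptosis. Some cells of normal blastocysts die by apoptosis, and cryopreservation is studied as a stress that could add to it.

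Slow-frozen morulae had been equilibrated in 1.5 M glycerol, seeded with ice at -7 °C, cooled at 0.5 °C per min to -35 °C and plunged into liquid nitrogen, then warmed and cultured to expanded blastocysts. Control morulae came from the same fertilization cycles and were cultured without freezing. Oocytes were from abattoir ovaries and were fertilized with semen of a dairy bull. Each pool held 7 embryos by the labels, which give day 7 after fertilization for both groups. In the methods pool size varied, the morulae were collected at about that day and were then cultured for 1 to 2 more days, which would make the blastocysts older than the labels say. Only embryos that had reached the expanded blastocyst stage were pooled, so embryos that died after warming are outside the measurement. Each of 4 two-colour arrays on 1 slide set a slow-frozen pool against a control pool, and each array was a separate biological replicate by the methods. Slow-frozen RNA carried Cy5 on arrays 1 and 2 and Cy3 on arrays 3 and 4.

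Trophectoderm markers, of the outer layer that forms the placenta, were all found, with 9 of 9 detected in all 8 readings (4 arrays, 2 dyes). Their summed signal was 91580 to 132400 in slow-frozen pools and 95860 to 154900 in control pools, and 0 of 9 had an unadjusted p under 0.05. The fitted ratio of slow-frozen over control was above 0 in 6 of 9, against 50.6% of all tested probes. The largest difference of the 9 was that of IFNT, which was lower in slow-frozen pools (log2 ratio -0.84 in limma, unadjusted p = 0.0618). The log2 ratios of the trophectoderm sums on arrays 1 to 4 were 0.446, -0.226, 0.185 and -0.408. All 4 epiblast markers passed the filter, 2 of them in all 8 readings. Their summed signal was 6074 to 10820 in slow-frozen pools and 3626 to 7993 in control pools. All 4 had a fitted ratio above 0 (0 with an unadjusted p under 0.05), and the log2 ratios of the sums on arrays 1 to 4 were -0.40, 1.46, 1.41 and 0.26. Of 3 hypoblast markers with a probe, 2 were tested and both had a fitted ratio below 0, also with none under that p. Their sums were 25980 to 59990 in slow-frozen pools and 30870 to 66970 in control pools, with log2 ratios of -0.04, 0.96, -0.05 and -1.37 on arrays 1 to 4. Of the markers of cumulus and granulosa cells, which surround the oocyte, 7 of 9 passed the filter, LHCGR was detected in 0 readings, and the sums were 3333 to 5445 in slow-frozen pools and 3981 to 5159 in control pools. Of these 7, 2 had a fitted ratio above 0. Only GJA1, which embryos also express, had a p under 0.05 (log2 ratio -0.42 in limma, unadjusted p = 0.0479), against 1.88% of all tested probes. Of 5 leukocyte and blood markers, 3 passed, 1 of them with a fitted ratio above 0. The sums of these markers were 885 to 1403 in slow-frozen pools and 1004 to 1218 in control pools. The part of these cell types in the values below was not tested, and in pooled embryos fewer cells of a type and less RNA per cell cannot be told apart. Across all tested probes the log2 ratios of any 2 arrays correlated between -0.278 and 0.04.

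No difference between slow-frozen and control pools larger than the spread between arrays was found in any of the 31 genes. With limma and Benjamini-Hochberg adjustment over 30473 tested probes, 0 members passed an adjusted p of 0.05, against 0% of all tested probes, and the lowest adjusted p was 0.9999. Before adjustment, 0 of 31 members had a p under 0.05, against 1.88% of all tested probes, and 0 also reached a 1.5-fold difference, against 0.404%. At those shares fewer than 1 of 31 genes would be called, so a count of 0 does not set the members apart from other genes. In 14 of 31 genes (45.2%) the fitted ratio of slow-frozen over control was above 0, against 50.6% of all tested probes. With arrays centred on the median in place of loess it was 6 of 31 (19.4%), against 34.3%. No member had a positive ratio on all 4 arrays, against 3.99% of tested probes, and none had a negative ratio on all 4, against 3.88%. With 4 arrays an exact two-sided sign-flip test of a single gene cannot give a p below 0.125.

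The 95% intervals say roughly how large a difference these arrays could have missed. They leave out differences between the dye orientations, and an offset added in processing draws the ratios of dim probes towards 0. All 31 intervals held a log2 ratio of 0, and they reached a median of 0.402 to either side of the fitted ratio. For 17 members the interval lay wholly within a 1.5-fold difference in either direction, and for 30 within a 2-fold difference. The exception was BCL2L13, whose upper bound of 1.06 was the highest. The lowest bound was -0.93, for GADD45B. These counts and bounds are those of the main fit. With the variance allowed to follow intensity, the SE rose from 0.14 to 0.23 for MCL1 and fell from 0.15 to 0.10 for CASP2. Which members lie within a 1.5-fold difference thus depends on the fit. Fitted log2 ratios ran from -0.37 for GADD45G to 0.34 for BCL2L13, and the largest corresponded to a 1.29-fold difference. In no member was the fitted ratio as large as the SD of its 4 array ratios, and in all 31 the signals of slow-frozen and control pools overlapped. Among all tested probes 0.725% had signals that did not overlap.

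**Figure D1:**
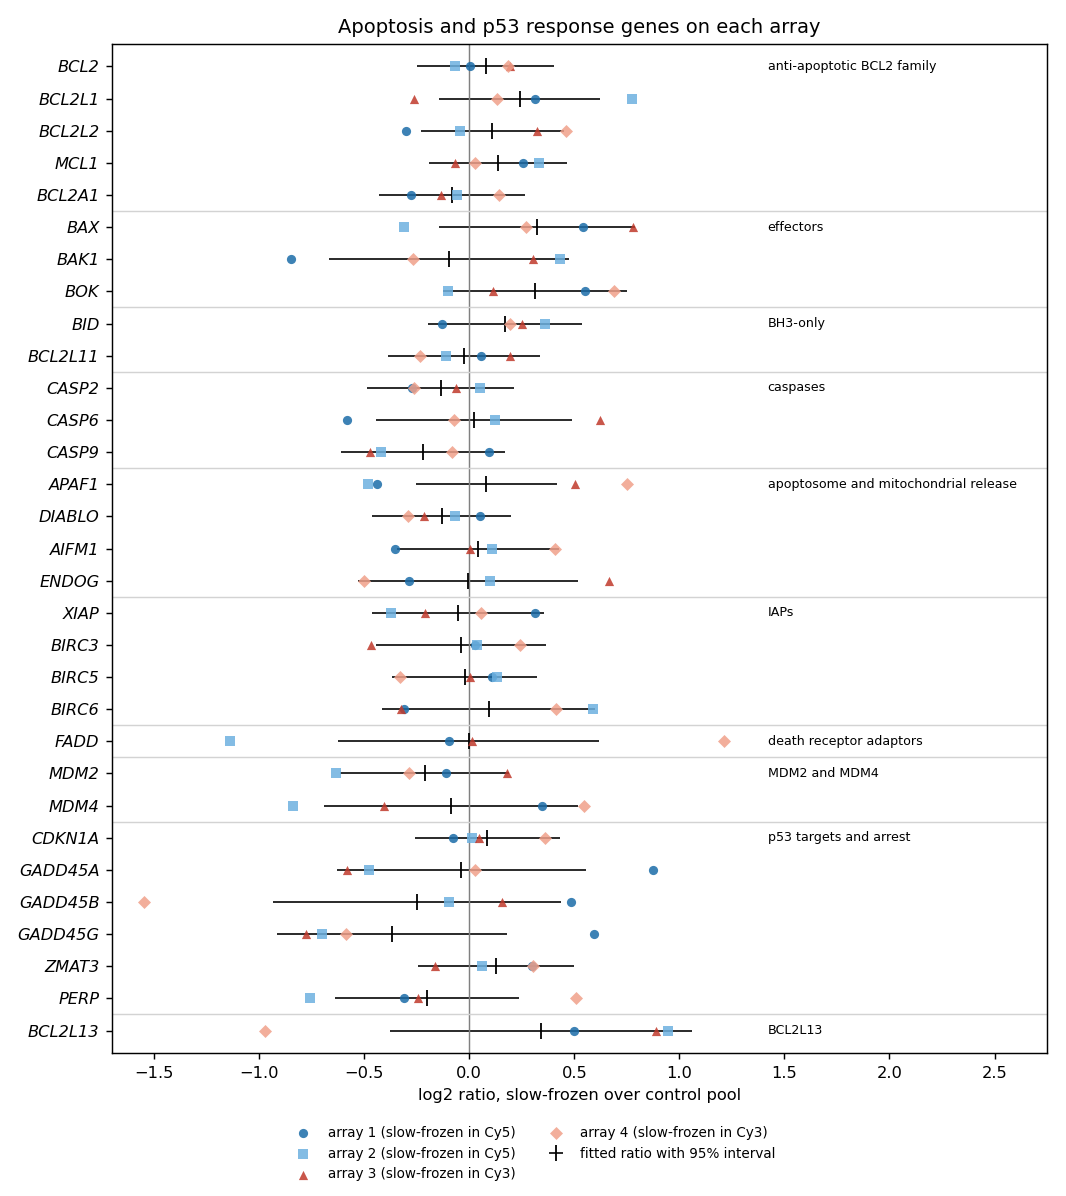
Log2 ratio of slow-frozen over control pool (x axis) for the 31 tested genes (y axis, grouped by role), with 1 symbol per array and the fitted ratio with its 95% interval in black. Every interval crosses 0, and the symbols of FADD, GADD45B and BCL2L13 lie farthest apart.

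The pro-apoptotic genes were not shifted against the anti-apoptotic ones in a direction that the arrays shared. The median fitted log2 ratio was -0.00 over the 13 pro-apoptotic genes, of which 6 lay above 0, and 0.08 over the 9 anti-apoptotic genes, of which 5 did. Over all tested probes it was 0.00. The difference of the medians, pro-apoptotic minus anti-apoptotic, was -0.08. On arrays 1 to 4 that difference was -0.16, -0.11, 0.33 and -0.22. Array 3 thus stood on the other side of 0 from arrays 1, 2 and 4 and had the largest value. The pro-apoptotic medians on arrays 1 to 4 were -0.13, -0.07, 0.20 and -0.07, and the anti-apoptotic medians were 0.03, 0.04, -0.13 and 0.14. Members are not replicates, so the difference carries no test; without array 1 it was 0.03, and without array 3 it was -0.26.

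**Figure D2:**
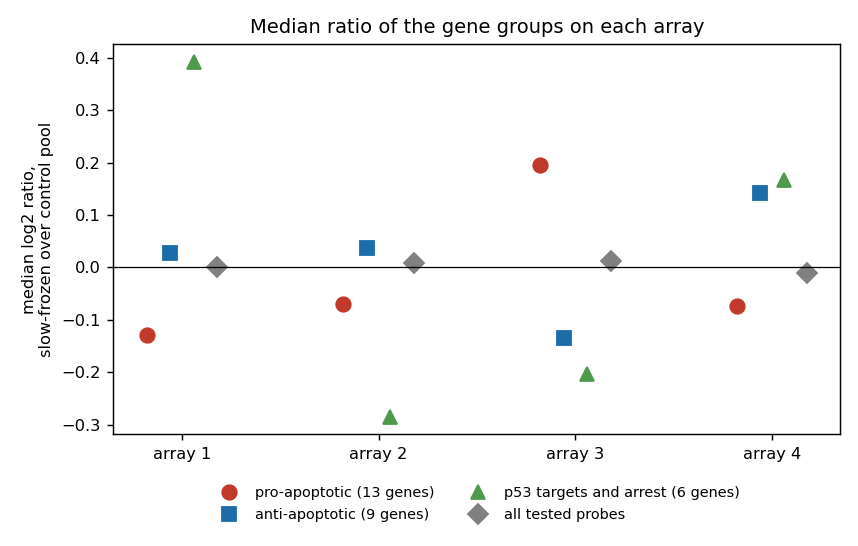
Median log2 ratio of slow-frozen over control pool (y axis) on each array (x axis). Shown are pro-apoptotic genes, anti-apoptotic genes, genes of p53 targets and arrest, and all tested probes. The genes of p53 targets and arrest lie above 0 on arrays 1 and 4 and below 0 on arrays 2 and 3. The medians of all probes stay close to 0.

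The anti-apoptotic BCL2 family held 5 tested genes, of which 4 had a fitted ratio above 0 (median 0.11). BCL2L1, which encodes BCL-xL, gave log2 ratios of 0.31, 0.77, -0.26 and 0.13 on arrays 1 to 4. Its normalized signal, in arbitrary units, was 404, 371, 399 and 365 in slow-frozen pools, against 325, 217, 479 and 333 in control pools. The slow-frozen pools lay close together and within the range of the control pools, which were lowest on array 2 and highest on array 3. The fitted ratio was 0.24 ± 0.16 (SE, n = 4 arrays, limma, unadjusted p = 0.18). MCL1, a short-lived relative of BCL2, had signals of 6885, 6309, 5826 and 5546 in slow-frozen pools, against 5776, 5009, 6101 and 5441 in control pools. Its ratios were 0.25 and 0.33 on arrays 1 and 2 and -0.07 and 0.03 on arrays 3 and 4. The dye term was 0.16 (limma, unadjusted p = 0.29), and the fitted ratio was 0.14 ± 0.14. BCL2 was near the detection limit, with detection in 3 of 4 readings of slow-frozen pools and 2 of 4 of control pools, and a fitted ratio of 0.08 ± 0.14. BCL2L2 (0.11 ± 0.14) and BCL2A1 (-0.08 ± 0.14), also death inhibitors, were within 1 SE of 0.

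Of the 3 effectors, BAX and BOK had some of the highest fitted ratios of the set, yet each was lower in the slow-frozen pool of array 2. BAX, which forms pores in the mitochondrial membrane, had signals of 501, 471, 552 and 435 in slow-frozen pools, against 344, 584, 321 and 361 in control pools. The slow-frozen pool was the brighter on arrays 1, 3 and 4, and the brightest pool of all 8 was the control pool of array 2. The log2 ratios were 0.54, -0.31, 0.78 and 0.27, and the fitted ratio was 0.32 ± 0.19 (95% interval -0.14 to 0.79, unadjusted p = 0.15). BOK, a relative of BAX, had signals of 1794, 2035, 2769 and 2772 in slow-frozen pools, against 1225, 2184, 2561 and 1720 in control pools. Its ratios were 0.55, -0.10, 0.11 and 0.69, and the fit gave 0.31 ± 0.18 (95% interval -0.12 to 0.75, unadjusted p = 0.13), the lowest unadjusted p of any member. With 1 array left out the fit ran from 0.11 (without array 1) to 0.53 (without array 2) for BAX and from 0.15 to 0.48 for BOK, and median centring gave 0.16 for BAX and 0.022 for BOK. BAK1, the partner of BAX in pore formation, did not share that order: its ratios were -0.85, 0.43, 0.30 and -0.27, with a fit of -0.10 ± 0.24.

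Of the BH3-only genes, 2 were tested. BID, which links death receptors to mitochondria, had signals of 747, 1021, 1001 and 855 in slow-frozen pools, against 817, 795, 842 and 747 in control pools. The slow-frozen pool was brighter on arrays 2, 3 and 4 and dimmer on array 1, and the fitted ratio was 0.17 ± 0.15. BCL2L11, which encodes the death activator BIM, was detected in 2 of 4 readings of slow-frozen pools and 3 of 4 of control pools, with ratios of 0.06, -0.11, 0.20 and -0.24 and a fit of -0.02 ± 0.15. BAD and BMF, which neutralize BCL2 relatives, were mostly not above background. BAD passed the limit in 0 of 4 slow-frozen pools and 1 of 4 control pools, and BMF in 1 of 4 of each, so no ratio is given for them.

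**Figure D3:**
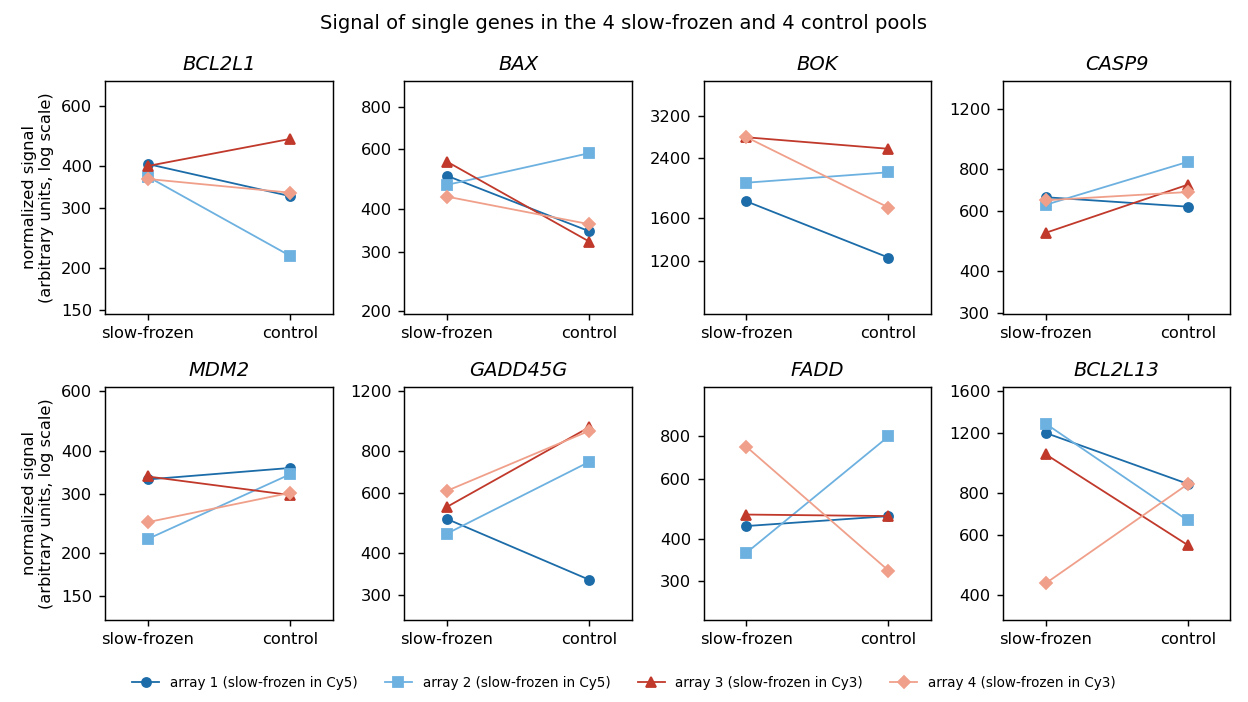
Normalized signal in arbitrary units (y axis, log scale) of 8 genes in slow-frozen pools (left) and control pools (right), with a line joining the pools of 1 array. In every panel the 2 groups overlap and at least 1 line slopes against the others.

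Of 5 caspase genes with a probe, 3 were tested, and 1 of them had a fitted ratio above 0. CASP9, the initiator of the mitochondrial route, had signals of 660, 627, 518 and 646 in slow-frozen pools, against 619, 838, 718 and 683 in control pools. Slow-frozen pools were dimmer on arrays 2, 3 and 4, with ratios of 0.09, -0.42, -0.47 and -0.08 and a fit of -0.22 ± 0.16 (unadjusted p = 0.22). CASP2, an initiator caspase linked to stress, was detected in 2 of 4 slow-frozen pools and 3 of 4 control pools. Its ratios were -0.27, 0.05, -0.06 and -0.26, and the fit was -0.14 ± 0.15. CASP6, an executioner caspase, had a fitted ratio of 0.02 ± 0.19. CASP8, the initiator at death receptors, was detected in 1 of 4 readings of each group, and CASP4, an inflammatory caspase, in 0 of 4 slow-frozen pools and 2 of 4 control pools. No ratio is given for either.

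Among genes of the apoptosome and of mitochondrial release, APAF1 separated by dye orientation. APAF1, the scaffold on which CASP9 is activated, had signals of 338, 476, 666 and 673 in slow-frozen pools, against 458, 665, 470 and 400 in control pools. The ratios were -0.44 and -0.48 where slow-frozen RNA carried Cy5, and 0.50 and 0.75 where it carried Cy3. The dye term of the fit was -0.54 (limma, unadjusted p = 0.0071), the lowest p of a dye term among the tested members. The 2 dye orientations held different pools, so dye and differences between pools cannot be told apart here. The fitted treatment ratio was 0.08 ± 0.14. DIABLO, which relieves caspases from the IAPs, had signals of 1693, 1687, 1471 and 1423 in slow-frozen pools, against 1634, 1770, 1707 and 1741 in control pools. Its ratios were 0.05, -0.07, -0.22 and -0.29, and the fit was -0.13 ± 0.14. AIFM1 and ENDOG, which act on nuclear DNA once released, had fitted ratios of 0.04 ± 0.16 and -0.00 ± 0.22.

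Over all members the dye term was larger than the treatment term in 19 of 31, against 58.5% of all tested probes. In those members the mean of arrays 1 and 2 and the mean of arrays 3 and 4 had opposite signs, which is the same condition. A median SD over the 4 array ratios of 0.346 in members, against 0.323 in all tested probes, shows similar scatter.

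The IAP family had 4 tested genes, with fitted ratios between -0.05 and 0.09, and 1 of 4 above 0. BIRC6, a very large IAP that also conjugates ubiquitin, had ratios of -0.31, 0.59, -0.33 and 0.41. Its signals were 4005, 5235, 3967 and 5471 in slow-frozen pools, against 4962, 3475, 4969 and 4112 in control pools, so the arrays split evenly in direction, and the fit was 0.09 ± 0.21. XIAP, a direct caspase inhibitor, had signals of 175, 169, 191 and 178 in slow-frozen pools, against 141, 219, 220 and 171 in control pools. Its slow-frozen pools lay within the range of the control pools, and its fitted ratio was -0.05 ± 0.17. BIRC3, which acts in TNF receptor signalling, had a fitted ratio of -0.04 ± 0.17. BIRC5, survivin, which also serves in chromosome segregation, had one of -0.02 ± 0.14.

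FADD, the adaptor that recruits CASP8 to death receptors, had the widest spread over arrays. Its signals were 436, 363, 471 and 746 in slow-frozen pools, against 466, 800, 466 and 322 in control pools. The log2 ratio was -1.14 on array 2 and 1.21 on array 4, and -0.10 and 0.01 on arrays 1 and 3, so the fitted ratio of -0.00 ± 0.26 averages opposite values. CFLAR, which blocks CASP8 activation, was detected in 1 of 4 readings of each group and was not tested.

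The genes of p53 control, p53 response and arrest came to 8 tested genes. MDM2, the ubiquitin ligase that removes p53 and is itself a p53 target, had signals of 330, 221, 337 and 247 in slow-frozen pools, against 357, 342, 297 and 302 in control pools. Its ratios were -0.11, -0.63, 0.18 and -0.29, with array 3 on the other side of 0, and the fit was -0.21 ± 0.17 (unadjusted p = 0.25). MDM4, which inhibits p53 as a partner of MDM2, had ratios of 0.35, -0.84, -0.41 and 0.55 and a fit of -0.09 ± 0.25. Of the 6 genes of p53 response and arrest, 2 had a fitted ratio above 0 (median -0.12). Their median on arrays 1 to 4 was 0.39, -0.29, -0.20 and 0.17, so the arrays split evenly in direction. The 6 genes include GADD45B and GADD45G, so these medians are not those of p53 targets alone.

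GADD45G, a stress gene whose product binds cell cycle proteins, had the lowest fitted ratio of the set. Its signals were 504, 456, 547 and 610 in slow-frozen pools, against 334, 742, 938 and 915 in control pools. Slow-frozen pools were dimmer on arrays 2, 3 and 4 (-0.70, -0.78 and -0.59) and brighter on array 1 (0.59), where the control pool was the dimmest of all 8. The fit gave -0.37 ± 0.23 (95% interval -0.91 to 0.18, unadjusted p = 0.15). Without array 1 the fitted ratio was -0.69 with an unadjusted p of 0.0149 and an adjusted p of 1 in limma, and without array 2 it was -0.044 (unadjusted p = 0.82). PERP, a p53 target that also serves in desmosomes, had signals of 10720, 14730, 12880 and 15830 in slow-frozen pools, against 13310, 24870, 15250 and 11130 in control pools. Its ratios were -0.31, -0.76, -0.24 and 0.51, with array 4 opposed to the others, and the fit was -0.20 ± 0.18.

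A few further genes of p53 response and arrest are given because of their values. GADD45B, a relative of GADD45G, had signals of 9509, 8333, 5586 and 2567 in slow-frozen pools, against 6789, 8900, 5007 and 7517 in control pools. Its ratio was -1.55 on array 4 and 0.49, -0.10 and 0.16 on arrays 1 to 3, and the fit was -0.25 ± 0.28. The fitted ratio was 0.18 without array 4, and -0.68 (unadjusted p = 0.0091, adjusted p = 0.999) without array 3. GADD45A, the member of that family best known as a p53 target, had ratios of 0.87, -0.47, -0.58 and 0.03 and a fit of -0.04 ± 0.25. CDKN1A, which encodes the cell cycle inhibitor p21 and is the classical p53 target, had signals of 242, 272, 322 and 364 in slow-frozen pools, against 255, 269, 312 and 283 in control pools. Its ratios were -0.08, 0.01, 0.05 and 0.36, with a fit of 0.09 ± 0.14 (95% interval -0.26 to 0.43). ZMAT3, an RNA-binding p53 target, had a fitted ratio of 0.13 ± 0.15.

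BCL2L13, a mitochondrial BCL2 relative described both as promoting death and as a receptor for mitophagy, had the highest fitted ratio. Its signals were 1202, 1280, 1040 and 433 in slow-frozen pools, against 851, 664, 562 and 849 in control pools. Slow-frozen pools were brighter on arrays 1, 2 and 3 (0.50, 0.95 and 0.89) and dimmer on array 4 (-0.97). The fit was 0.34 ± 0.30 (unadjusted p = 0.29). Without array 4 it was 0.81 with an unadjusted p of 0.0027 and an adjusted p of 0.446, and without array 3 it was -0.12.

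Probes of the same gene often gave different directions. Another probe was tested for 10 members, 12 such probes in all, and in 6 genes at least 1 of them had the opposite sign. For BCL2L13 the other probe had ratios of -0.09, 0.49, -0.02 and -0.45 and a fit of -0.02 ± 0.17, against 0.34 for the brightest probe. For CASP9 the other probe gave 0.13 ± 0.20, against -0.22. For MCL1 the others gave -0.05 ± 0.18 and -0.24 ± 0.24, against 0.14. BCL2L1 had 3 tested probes, all with fitted ratios above 0 (0.24, 0.16 and 0.11). The other probe of FADD had ratios of 0.65, -0.25, -0.25 and -0.09, and so did not show the wide values of arrays 2 and 4. The other probe of BCL2L2, noted because of its values, was the only one of the 12 that was positive on all 4 arrays (0.36, 0.14, 0.08 and 0.43), with a fit of 0.25 ± 0.15 and an unadjusted p of 0.14.

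**Figure D4:**
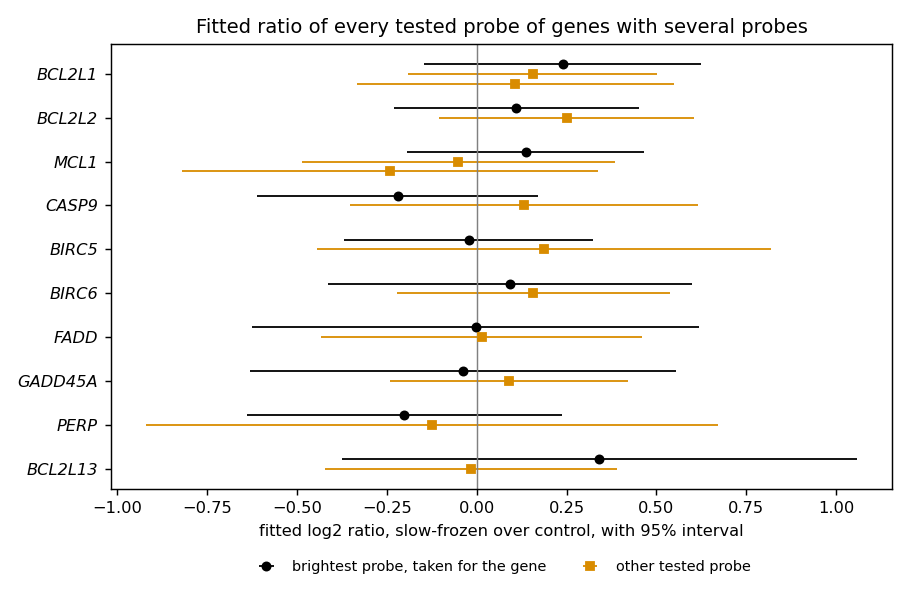
Fitted log2 ratio of slow-frozen over control with its 95% interval (x axis) for each tested probe of the 10 genes with several tested probes (y axis). All intervals cross 0, and the probes of MCL1, CASP9 and BCL2L13 lie on different sides of 0.

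Other genes of the pathway, outside the 40, were counted the same way. Of 46 such genes 35 had a probe and 30 were tested, with 12 fitted ratios above 0 (against 50.6% of all tested probes), 18 below and a median of -0.04. In limma 0 of the 30 passed the adjustment and 1 had an unadjusted p under 0.05, which is close to the 1.88% of all tested probes. This was TNFRSF1A, the main TNF receptor, with ratios of 0.32, 0.64, 0.47 and 0.26 and a fit of 0.42 ± 0.15 (unadjusted p = 0.0259, adjusted p = 0.9999). TNFRSF1A was the only one of the 30 with a positive ratio on all 4 arrays, against 3.99% of all tested probes, and BAG1 and CCNG1 had a negative ratio on all 4, against 3.88%. BAG1, a cochaperone that binds BCL2, had ratios of -0.23, -0.42, -0.21 and -0.49 and a fit of -0.34 ± 0.14 (unadjusted p = 0.0531). CCNG1, a p53 target that encodes cyclin G1, had ratios of -0.02, -0.07, -0.68 and -0.01 and a fit of -0.19 ± 0.17 (unadjusted p = 0.28).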

How the data were processed

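RNA of blastocyst pools was amplified and hybridized to 4 two-colour EmbryoGENE bovine arrays, each with 1 slow-frozen and 1 control pool, dyes swapped on arrays 3 and 4. Labels gave the groups and dyes. In the deposited scanner files, each probe has a median intensity of spot and background in both channels; the last 14 lines, which hold statistics, were dropped. A deposited table of log2 values was also given. Its columns (medians -0.0023, 0.0005, -0.0023 and 0.0017) correlated at 0.993, 0.985, 0.938 and 0.972 with log2 Cy5 over Cy3 of each array, so it was read as centred ratios and used as an alternative, with 0 columns unused. The methods describe background subtraction, lowess and quantile normalization. No aligner or genome build applies to the intensities, and the build behind the probes was not given in the sources used here.

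Intensities were corrected with normexp (offset 50) and normalized by loess, control spots carrying weight 0, with limma 3.58.1 (R 4.3.3). The offset draws the ratios of dim probes towards 0. A reading was detected when its background-subtracted signal was above the 95th percentile of the 153 negative controls, and probes detected in at least 4 of 8 readings were tested: 30473 of 43794. On the whole array 21790 probes carry a symbol. The log2 ratios, with the slow-frozen pool on top on every array, were fitted in limma with a treatment and a dye term, eBayes and Benjamini-Hochberg adjustment at 0.05 over all tested probes. Each SE is the moderated one and leaves out differences between the dye orientations. Pool signals are loess and Aquantile normalized and serve as description. They set no probe against another. The number of arrays limits the precision. The script was tested on simulated data. Figures were drawn with matplotlib 3.10.9.

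Array values are given for the 2 genes with the smallest p in each role group and for any with 1 sign on all arrays or a p under 0.05 (0 genes). BAK1, CDKN1A, GADD45A, GADD45B, BCL2L13, TNFRSF1A, BAG1, CCNG1 and the other probes were added after their values were seen. The members and lists were chosen with earlier results of these data known.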

Additional observations from a re-analysis of the deposited data

Results flagged for a closer look

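The log2 ratio of GADD45G on array 1, 0.594, stood apart from the 3 other arrays, with a gap to the nearest of them of 0.86 times the whole range, which is past Dixon's 95% limit for 4 values. It was the only such case in 34 sets of 4 array values, and chance alone gives such a value in a few percent of sets.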

How the results depend on the processing

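In all 17 alternatives 0 members passed the adjustment. Of 523 gene values 462 kept direction and side of an unadjusted p of 0.05, 6 passed that p, and 55 changed sign. Some alternatives cannot change a fitted ratio in this design, so their directions were fixed in advance. These are quantile normalization of average intensity, no dye term, an intensity trend, other filters on dim probes and no array block. The deposited table gave nearly the values of plain subtraction. Median centring in place of loess moved all tested probes by a median of -0.08 and left 6 members above 0. It put 3 of 31 under that p (9.68%), against 6.14% of all tested probes: DIABLO (-0.39), GADD45B (-0.52) and GADD45G (-0.58), lowest adjusted p 0.796. Of the 1872 probes under that p on the whole array, 114 had a ratio above 0. In the other processing alternatives 14 to 18 of 31 members lay above 0, or 13 of 27 where probes had to be detected in all 8 readings. Leaving out 1 array gave 0 to 1 of 31 members under that p and 16 to 17 above 0. The 1 member (3.23%) was GADD45G without array 1, GADD45B without array 3 and BCL2L13 without array 4. Of all tested probes 2.05%, 4.27% and 6.45% were under that p in those fits, in that order. The pro-apoptotic minus anti-apoptotic median was -0.08 to -0.05 under processing alternatives and -0.26 to 0.03 with an array left out. The ratios pair the pools by array. With no array block, as separate channels, the fitted ratios stay the same by design, so the same 14 members lay above 0. In that fit 0 members were under that p, against 1.33% of all tested probes.

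These genes changed sign, and the cause was not tested. With median centring BCL2L2 was at -0.052, MCL1 -0.17, BID -0.064, CASP6 -0.28, APAF1 -0.11, AIFM1 -0.20, BIRC6 -0.21 and CDKN1A -0.053. With mean spot signal CASP2 was at 0.11, CASP6 -0.11, ENDOG 0.027, BIRC3 0.033, BIRC5 0.084, FADD 0.065, GADD45A 0.10 and ZMAT3 -0.23. Averaging the probes of a gene gave MCL1 -0.052, BIRC5 0.082, FADD 0.0056 and GADD45A 0.026. ENDOG was at 0.036 and FADD at 0.014 both with plain subtraction and in the deposited table, where BCL2L11 was at 0.0088 and 0.0089. With no background correction BCL2L11 was at 0.021, ENDOG 0.020 and FADD 0.017. Quantile normalization of all channels gave BCL2L11 0.012 and ENDOG 0.10. With 1 array left out, values ran from -0.42 to 0.22 for BAK1, -0.30 to 0.29 for ENDOG, -0.13 to 0.084 for BCL2L11, -0.15 to 0.20 for CASP6, -0.074 to 0.16 for AIFM1, -0.23 to 0.12 for XIAP, -0.13 to 0.32 for BIRC6 and -0.30 to 0.30 for FADD. They ran from -0.38 to 0.21 for MDM4, -0.38 to 0.30 for GADD45A, -0.22 to 0.14 for BIRC3, -0.12 to 0.81 for BCL2L13, -0.11 to 0.062 for BIRC5 and -0.68 to 0.18 for GADD45B.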
